A study of Mus musculus with 2 samples.

Results

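The replication-dependent histone genes were taken as every gene of the deposited matrices whose older symbol starts with Hist1h, Hist2h, Hist3h or Hist4h. This gave 67 of the 31053 features: 6 linker histone H1 genes, 18 H2A, 18 H2B, 12 H3 and 13 H4 genes. By the GENCODE M21 annotation of mouse genome build GRCm38, 54 lie in the Hist1 cluster (chr13:21715763-23934851), 10 in Hist2 (chr3:96219865-96270132), 2 in Hist3 (chr11:58948920-58956830), and Hist4h4 stands alone (chr6:136801553-136804415). UMIs (unique molecular identifiers, each standing for 1 captured RNA molecule) were found for 66 of the 67. The exception was Hist1h2ba, a testis-type H2B, with 0 of 43731597 UMIs in replicate 1 and 0 of 34571424 in replicate 2, which allows up to 3 UMIs in each.

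Core histones H2A, H2B, H3 and H4 form the protein spool of the nucleosome, and linker histone H1 binds the DNA that enters and leaves it. A cell that copies its genome must package the copy, so the clustered genes are switched on together in S phase and their mRNAs are destroyed when replication ends. These mRNAs have no introns as a rule and end in a conserved stem-loop in place of a poly(A) tail. The stem-loop binding protein Slbp holds that end. A 3′ single-cell kit primes on poly(A), so it captures such mRNAs poorly, through A-rich stretches or through the polyadenylated forms that several of these genes are known to make, among them forms described in differentiated tissues. A level below is therefore a rate of capture as well as of expression, and it is given in CPM, a gene's UMIs per 1000000 UMIs of the class, with no scaling by length because the kit counts 3′ ends.

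The series holds 2 libraries of 1 group, here called replicate 1 and replicate 2. Both are hair follicle stem cells from skin of wild type mice, strain C57BL/6;CD1, at postnatal day 32, labelled as anagen, when follicles grow. Cells were sorted for CD34 and for a green fluorescent protein fused to histone H2B under the K14 promoter, and libraries were made with the 10x Chromium 3′ kit, version 3. The reporter is itself an H2B, and its part in the H2B counts was not tested. Nothing in the labels says that the libraries come from separate animals, so every p-value below measures the spread between 2 libraries, which may be technical.

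After filtering, 3918 of 6592 barcodes of replicate 1 and 3041 of 5080 of replicate 2 were kept, with 1723 to 66975 and 1951 to 97873 UMIs per cell. The libraries share 11 barcodes, of which 3 were kept in each. Krt14 was detected in 96.4% and 96.5% of kept cells, Krt5 in 98.3% in each, and Cd34, the other sort marker, in 46.5% and 46.8%. Of 12 cell clusters formed without any histone cluster gene, cluster 4, led by Sms, Dnph1 and Nsg1, held 40 cells of replicate 1 and 575 of replicate 2, so that 93.5% of it was from replicate 2. Cluster 10, led by the collagens Col3a1, Col1a1 and Col1a2, held 81 and 52 cells, and cluster 12, led by Cd74, H2-Aa and Lyz2, held 9 and 15.

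Cells were put into 4 phase classes per library by the share of their UMIs from 39 S-phase and 52 G2M-phase genes, with no histone cluster gene in either list. A cell was high for a list above the median plus 3 scaled median absolute deviations of its library. No phase signal was seen in 2874 cells of replicate 1 and 2212 of replicate 2. The S list alone was high in 271 and 244 cells, both lists in 255 and 232, and the G2M list alone in 518 and 353. These classes are ranges of a score, not cell types: 164 and 157 cells lay within 10% of the S cut, and 96 and 88 within 10% of the G2M cut. In the order no phase signal, S, S and G2M, G2M, the median depth was 9298, 10621, 11586 and 13014 UMIs in replicate 1 and 9012, 12454, 15274.5 and 14134 in replicate 2. Counts were not corrected for ambient RNA, which the phase calls read as well.

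The stem-loop is the part that these genes share by sequence, so it is printed for members on which the results below turn. Capitals mark the 16 bases of the stem, loop and second stem strand, in DNA letters on the sense strand after the stop codon, from GENCODE M21 transcripts.
Hist1h1e (H1): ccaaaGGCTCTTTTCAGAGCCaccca
Hist1h1c (H1): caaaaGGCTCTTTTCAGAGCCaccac
Hist1h2ae (H2A): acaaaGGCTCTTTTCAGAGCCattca
Hist1h2ab (H2A): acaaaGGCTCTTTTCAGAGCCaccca
Hist2h2ac (H2A): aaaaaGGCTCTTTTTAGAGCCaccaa
Hist1h3c (H3): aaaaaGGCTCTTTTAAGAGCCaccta
Hist1h4d (H4): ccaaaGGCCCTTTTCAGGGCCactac
Hist1h4i (H4): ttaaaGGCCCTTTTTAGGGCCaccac
A search for a 16-base pattern (GG, 3 bases of any kind, TT, any base, T, any base, A, 3 of any kind, CC) on the sense strand after the stop codon found the element in 46 of the 67 genes. The form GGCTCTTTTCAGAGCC stood in 26 of them, none an H4 gene, and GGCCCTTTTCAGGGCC in 7, all H4 genes. Of the 21 genes without a match, 13 have a gene model with no 3′ UTR at all, so the search could not reach the element there. Hist1h1b is among these. In the last 400 bases of protein-coding transcripts, 32 of the 67 genes (47.8%) held the motif, against 1.15% of the other 21834 protein-coding genes.

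Summed over all 67 genes, the level was 894, 713, 2189.6 and 1426 CPM in replicate 1 and 527, 628, 3697 and 1604 in replicate 2, in the order no phase signal, S, S and G2M, G2M. Cells high for both lists had the highest sum in each library, and the libraries did not overlap with those of any other class there. Most of the sum in cells with no phase signal came from 2 genes, the linker histone gene Hist1h1c and the H2B gene Hist1h2bc, which made up 75.1% of it in replicate 1 and 57.0% in replicate 2. In S and G2M cells the same genes made up 15.4% and 5.98%. Setting them aside was decided after their levels were seen. The other 65 genes summed to 223, 324, 1852 and 919 CPM in replicate 1 and to 226, 486, 3475 and 1317 in replicate 2. Relative to cells with no phase signal this is 8.32-fold and 15.4-fold in S and G2M cells, 4.13-fold and 5.82-fold in G2M cells, and 1.45-fold and 2.15-fold in S cells.

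**Figure D1:**
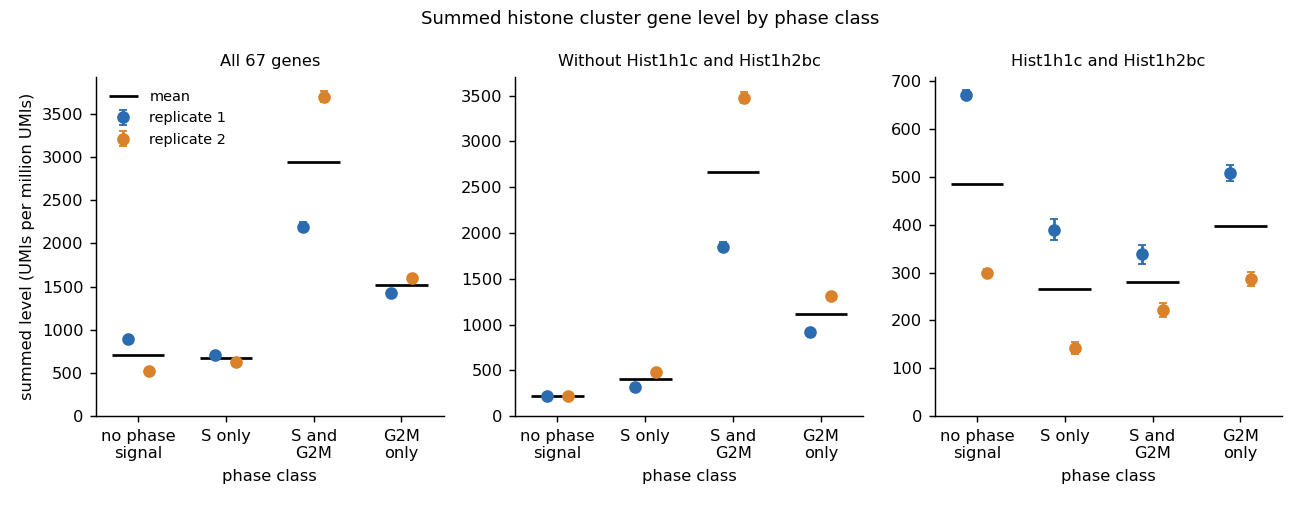
Summed level in CPM (vertical axes) by phase class for all 67 genes, for 65 genes without Hist1h1c and Hist1h2bc, and for these 2. Points are the libraries with exact 95% Poisson intervals for counting error and bars are the means of 2 libraries; the 65 genes reach 1852 and 3475 in S and G2M cells, against 223 and 226 in cells with no phase signal.

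UMIs were summed per class and library and fitted across 11580 genes with edgeR, with a term for the library. Of the 67 genes, 44 passed the filter on low counts. A gene can pass through the class where it is high, so the counts that follow do not stand for all 67. The 23 others had at most 88 UMIs over both libraries. In S and G2M cells against cells with no phase signal, 37 of the 44 were higher and 2 lower, with a median log2 fold change of 3.44, against -0.03 for all genes tested. Of all genes tested, 36.8% were called there, 19.6% higher and 17.2% lower. In G2M cells 32 were higher and 1 lower (median 2.40), where 26.8% of all genes were called, 14.3% higher and 12.5% lower. In S cells 14 were higher and 3 lower (median 0.65), where 24.8% of all genes were called, 15.1% higher and 9.66% lower. Without the library term the numbers of calls, in either direction, were 23 in S and G2M cells, 15 in G2M cells and 1 in S cells. With Seurat-type scores they were 39, 21 and 6, and the 17 calls in S cells were 9 at a limit of 5% mitochondrial UMIs and 10 without cluster 4. The shares of all genes above belong to the main fit, and none is given for these alternatives. Whether other genes lose calls alike was not tested.

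**Figure D2:**
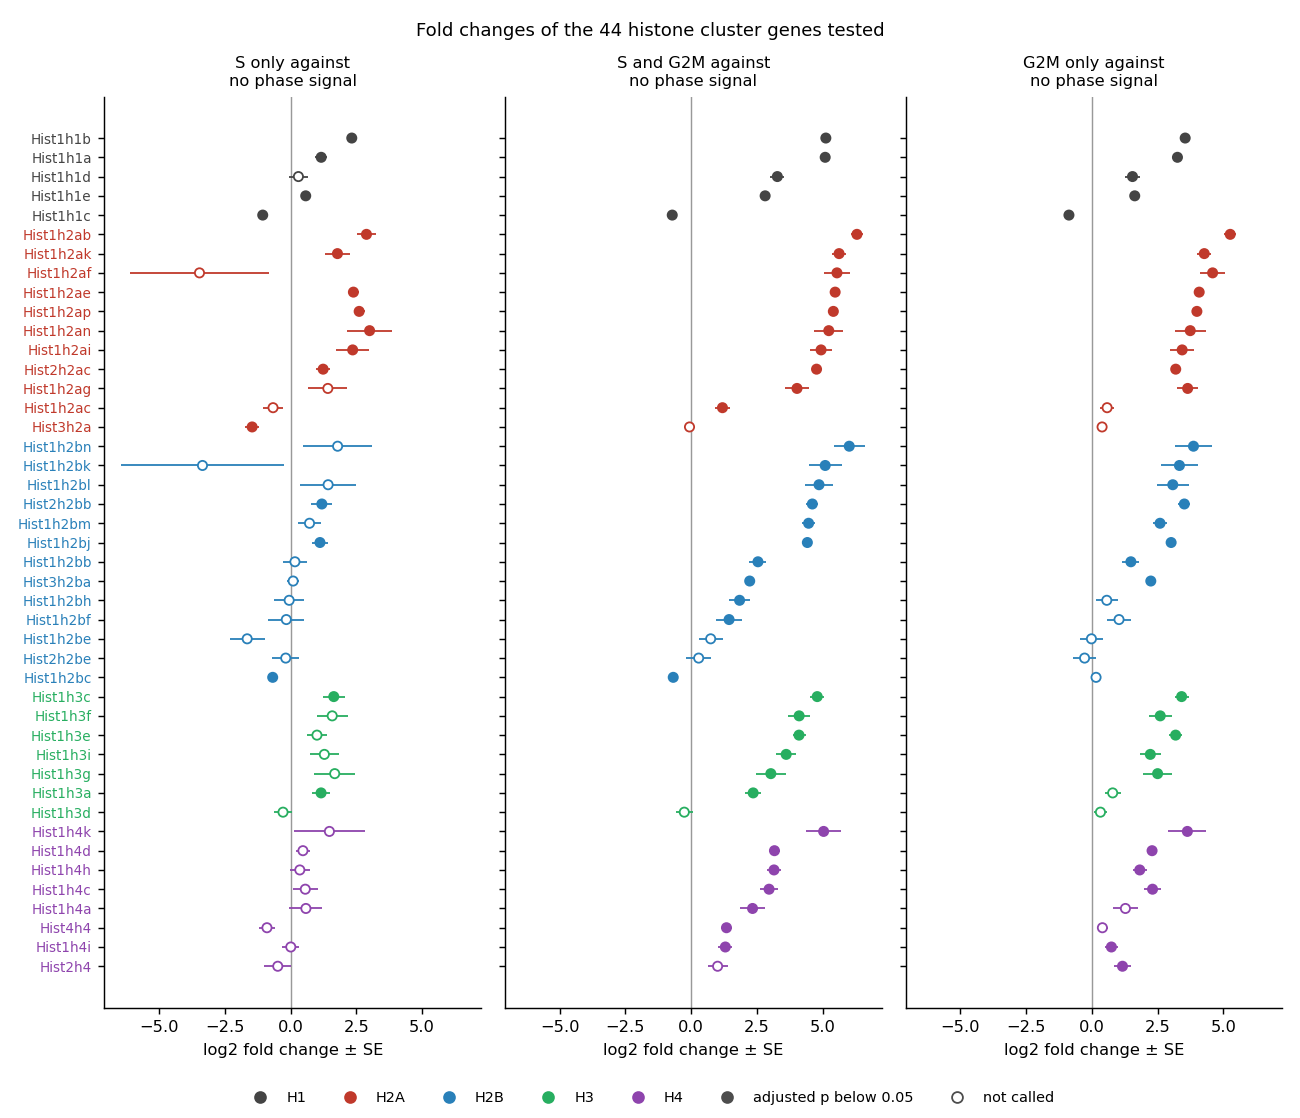
Log2 fold change with its standard error (horizontal axes) of the 44 genes tested, against cells with no phase signal, in S, S and G2M, and G2M cells, ordered and coloured by histone type. Filled points have an adjusted p below 0.05 (14 higher and 3 lower, 37 and 2, 32 and 1 from left to right); the open points of Hist1h2af and Hist1h2bk in the left panel rest on 0 UMIs in S cells of both libraries, so their position depends on the prior count.

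Among linker histones, Hist1h1b, which encodes H1.5, was the most abundant after Hist1h1c. It stood at 24.5, 109, 748 and 298 CPM in replicate 1 and at 22.5, 120.4, 873 and 264 in replicate 2. The libraries lay close together in every class, and the 4 classes did not overlap. Its log2 fold change in S and G2M cells against cells with no phase signal was 5.12 ± 0.13 (SE; edgeR adjusted p = 9.21e-11). Hist1h1a, for H1.1, followed it from a lower level, with 91.5 and 125 CPM in S and G2M cells against 2.79 and 3.56 in cells with no phase signal. Hist1h1e, for H1.4, had 402 and 471 against 61.8 and 64.5, a log2 fold change of 2.81 ± 0.12 (edgeR adjusted p = 4.68e-09). Hist1h1e overlaps Hist1h2be and Gm11398 on the same strand, so reads of these genes cannot be told apart there and its level is uncertain. Hist1h1d, for H1.3, had 59.1 and 125 against 9.96 and 8.80. The testis H1 gene Hist1h1t had 8 and 13 UMIs in all.

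Hist1h1c, for H1.2, was lower in each phase class than with no phase signal when cells were summed over cell clusters. Its level was 368, 204, 184 and 209 CPM in replicate 1 and 143, 49.5, 103 and 78.3 in replicate 2, highest in cells with no phase signal in each library. Replicate 1 was above replicate 2 in every class. The log2 fold change against cells with no phase signal was -1.06 ± 0.19 in S cells, -0.72 ± 0.19 in S and G2M cells and -0.87 ± 0.18 in G2M cells (edgeR adjusted p = 0.00193, 0.0107 and 0.00434). By DESeq2 the last 2 were not called (adjusted p = 0.133 and 0.0657), and with Seurat-type scores the S value was -0.41 and not called (edgeR adjusted p = 0.0695). The classes lie in different cell clusters, and within a cluster the direction was not the same throughout. In replicate 1, S and G2M cells had 153 CPM in cluster 4, against 244 in cells with no phase signal, and 169 in cluster 9, against 193. In replicate 2 they had 74.5 in cluster 4, against 57.8, and 186 in cluster 9, against 32.2. Several of these values rest on few cells and were not tested. Over all phase classes, cluster 4 held 40 cells of replicate 1, and cluster 9 held 64 and 74 cells. Without cluster 4, S and G2M cells had 186 and 146 against 368 and 158. Of the 5 H1 genes tested with edgeR, Hist1h1c alone was called lower in any class.

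H2A genes had the highest median change. Of 11 tested, 10 were higher in S and G2M cells, with a median log2 fold change of 5.23, and 7 were already higher in S cells. Hist1h2ae rose to 69.9 CPM in S and G2M cells of replicate 1, against 2.29 in cells with no phase signal, and to 707 in replicate 2, against 13.7. The log2 fold change was 5.47 ± 0.19 (edgeR adjusted p = 7.26e-10). Hist1h2ab had 8.01 and 83.0 in S and G2M cells against 0.17 and 0.96, a log2 fold change of 6.30 ± 0.23, the largest of the 44 genes. Its base is near the floor: without cluster 4, cells with no phase signal held 5 and 17 of its UMIs. Hist1h2ap had 33.0 and 175 against 0.73 and 4.28. Hist2h2ac, on chromosome 3, had 44.04 and 83.3 against 1.76 and 2.92. Hist3h2a, which overlaps Trim17 on the same strand and is uncertain for that reason, differed from these: 27.4 and 14.1 in S and G2M cells against 30.1 and 14.0 (log2 -0.06 ± 0.20, edgeR adjusted p = 0.828), while in S cells it was lower, at 8.12 and 6.90 (log2 -1.46 ± 0.26, edgeR adjusted p = 0.0015).

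H2B genes were the most mixed type. Of 13 tested, 10 were higher in S and G2M cells and 1, Hist1h2bc, lower; their median log2 fold change was 2.54. Hist1h2bc, the most abundant of the 67 on average, had 304, 185, 154 and 299 CPM in replicate 1 and 157, 93.1, 118 and 209 in replicate 2. It was lower in S cells and in S and G2M cells than in cells with no phase signal (log2 -0.68 ± 0.15 in each, edgeR adjusted p = 0.00623 and 0.00378). In G2M cells it did not differ beyond the spread (0.16 ± 0.14, edgeR adjusted p = 0.44). With Seurat-type scores the S and G2M value turned to 0.069 (edgeR adjusted p = 0.638), and without cluster 4 it was -0.36 (edgeR adjusted p = 0.257). There the libraries went opposite ways, with 149.8 CPM in S and G2M cells against 303 in replicate 1 and 217 against 156 in replicate 2. Its S value was -0.61 without cluster 4 (edgeR adjusted p = 0.0784). Hist1h2bj, by contrast, had 22.5 and 56.0 in S and G2M cells against 1.13 and 2.55, and Hist2h2bb 25.3 and 32.6 against 1.23 and 1.14. Hist2h2bb overlaps Gm42743 on the same strand, so its level is uncertain. Hist3h2ba was as high in G2M cells, at 57.8 and 32.2, as in S and G2M cells, at 48.97 and 35.3 (log2 difference -0.02 ± 0.16, S and G2M over G2M).

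H3 and H4 genes were captured least: H3 genes summed to 19.0 and 38.4 CPM over all kept cells and H4 genes to 46.5 and 102, against 592 and 459 for H1. Of 7 H3 genes tested, 6 were higher in S and G2M cells. Hist1h3c had 16.9 and 53.0 there against 0.93 and 1.41 in cells with no phase signal (log2 4.79 ± 0.26, edgeR adjusted p = 3.87e-08). Hist1h3d was the H3 gene not called, with 3.08 and 4.24 against 4.12 and 4.74. Of 8 H4 genes tested, 7 were higher in S and G2M cells. Hist1h4d, the most abundant, had 36.6 and 211 in S and G2M cells against 6.38 and 18.0 (log2 3.17 ± 0.21, edgeR adjusted p = 2.08e-07), and in S cells, at 8.12 and 27.02, it was not called (log2 0.47 ± 0.27, edgeR adjusted p = 0.228). Hist1h4i moved less, at 28.3 and 35.8 against 16.6 and 9.71 (log2 1.30 ± 0.26, edgeR adjusted p = 0.0023). Hist4h4 had 14.5 and 15.7 against 6.11 and 5.93.

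By genomic cluster, 33 of 37 tested Hist1 genes were higher in S and G2M cells, 2 of 4 in Hist2, 1 of 2 in Hist3, and Hist4h4. The Hist1 cluster held 92.5% and 93.8% of all histone cluster UMIs. Summed Hist2 genes stood at 78.8 and 132 CPM in S and G2M cells against 10.7 and 10.5 in cells with no phase signal. Summed Hist3 genes had 76.4 and 49.3 against 43.0 and 19.9, and were higher still in G2M cells, at 90.3 and 56.9.

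**Figure D3:**
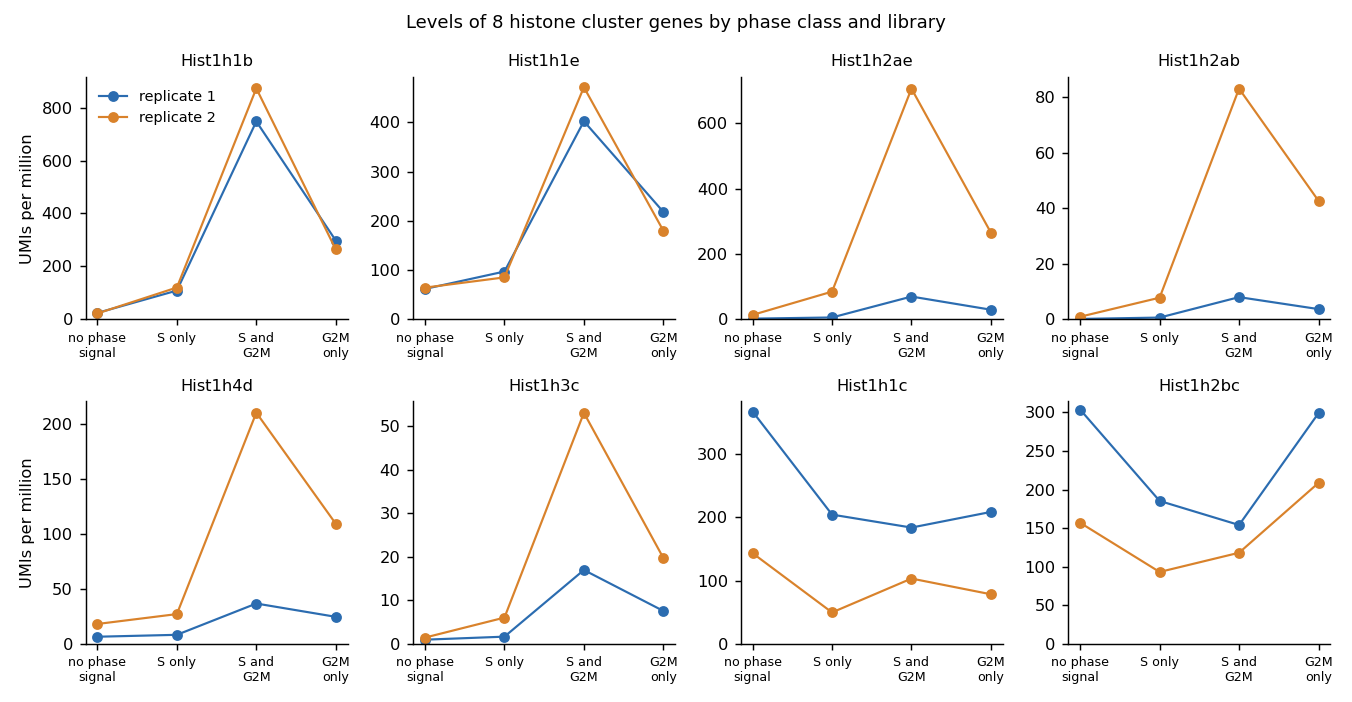
Level in CPM (vertical axes, each gene on its own scale from 0) by phase class for 8 genes, 1 line per library. Hist1h1b and Hist1h1e peak alike in both libraries, Hist1h2ae, Hist1h2ab, Hist1h4d and Hist1h3c peak in the same class but far higher in replicate 2, and Hist1h1c is highest in cells with no phase signal, at 368 and 143.

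The classes were also compared with each other. In S cells against G2M cells, 0 of the 44 genes were higher by the edgeR test and 24 were lower, where 13.7% of all genes were called, 7.80% higher and 5.90% lower. At an unadjusted p below 0.05 the counts were 0 and 29, and by DESeq2 0 and 21. With Seurat-type scores 12 of the 44 were called. The share of all genes called under these alternatives is not given. The median log2 difference was -1.55. S and G2M cells against S cells, a comparison added after the levels were seen, had 30 genes higher and 0 lower by edgeR. Of all genes tested, 3.68% were called there, 2.97% higher and 0.708% lower. The counts were 39 and 0 at an unadjusted p below 0.05 and 27 and 0 by DESeq2, again without a share of all genes. S and G2M cells against G2M cells had 23 higher and 1 lower, Hist1h2bc, where 10.1% of all genes were called, 6.46% higher and 3.63% lower. Hist1h1b was thus 2.79 ± 0.12 above S cells and 1.57 ± 0.11 above G2M cells on the log2 scale (edgeR adjusted p = 5.93e-08 and 3.5e-06). The highest level was in S and G2M cells for 44 of the 65 genes with UMIs in replicate 1, for 52 of 64 in replicate 2 and for 42 in both. Of these 42, 36 passed the filter, and the others had at most 88 UMIs over both libraries. The share of all features highest in this class is not given, so these counts are a description.

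Markers of other cell types also differed between the classes. The 6 fibroblast markers summed to 173 and 41.9 CPM in S and G2M cells against 1198 and 1120 in cells with no phase signal. Pdgfra and Lum were at 0 in S and G2M cells of replicate 2. The 6 macrophage and dendritic markers summed to 2.77 and 2.65 against 168 and 411, with Ptprc, Cd207 and H2-Aa at 0 in replicate 1 and Ptprc, Cd207 and Lyz2 at 0 in replicate 2. Without clusters 10 and 12, an alternative added after the results were seen, the fibroblast markers summed to 137 and 41.9 CPM in S and G2M cells against 16.2 and 19.4 with no phase signal, and the macrophage and dendritic markers to 2.79 and 2.65 against 2.65 and 4.94. The numbers of calls were then 39 for S and G2M cells, 33 for G2M cells and 17 for S cells, the same totals as over all cells, with 13 higher and 4 lower in S cells. No share of all genes is given for this alternative.

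Per cell, the classes were compared after each cell was thinned to 5000 UMIs, which left out 164, 11, 7 and 15 cells of replicate 1 and 162, 4, 6 and 17 of replicate 2. Hist1h1b was detected in 8.01%, 25.4%, 86.7% and 46.5% of thinned cells in replicate 1 and in 6.93%, 24.6%, 85.8% and 40.2% in replicate 2. Most S and G2M cells thus held it in each library, and few cells with no phase signal did. Unthinned, the shares in S and G2M cells were 91.4% and 94.4%. Hist1h2ae was detected in 0.996%, 2.31%, 27.4% and 15.9% of thinned cells in replicate 1 and in 4.15%, 12.9%, 84.1% and 37.2% in replicate 2. For S and G2M cells the exact 95% Clopper-Pearson intervals are 22.0 to 33.4% and 78.6 to 88.6%, which do not overlap; they cover counting error only. Hist1h1c was detected in 51.5%, 40.4%, 48.8% and 48.3% in replicate 1 and in 33.0%, 17.9%, 25.2% and 33.3% in replicate 2. Unthinned, the shares were 63.8%, 53.1%, 72.9% and 68.5% in replicate 1 and 44.4%, 31.6%, 60.3% and 50.4% in replicate 2. In the collagen-led cluster 10 Hist1h1c was found, unthinned, in 24.7% of cells of replicate 1 and 30.8% of replicate 2. In cluster 12 it was found, unthinned, in 22.2% of 9 cells of replicate 1 and 53.3% of 15 cells of replicate 2. The unthinned share in S cells of replicate 2 lies near that of cluster 10. Those in G2M cells and with no phase signal of replicate 2 lie below that of cluster 12. These shares cannot be told apart from ambient RNA. Whether cells of clusters 10 and 12 express Hist1h1c was not tested. In the collagen-led cells of cluster 10, unthinned, Hist1h2ae was found in 1 of 81 and 2 of 52 cells and Hist1h1b in 5 and 2, at a median depth of 12286 and 13889 UMIs. Shares at or below these levels, 1.23% and 3.85% for Hist1h2ae and 6.17% and 3.85% for Hist1h1b, cannot be told apart from ambient RNA. These levels are unthinned. Cells with no phase signal had, unthinned, 2.16% and 6.42% for Hist1h2ae and 13.5% and 10.8% for Hist1h1b.

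S and G2M cells carried several histone cluster genes at once. Without Hist1h1c and Hist1h2bc, the median thinned S and G2M cell held UMIs of 4 of them in replicate 1 and of 8 in replicate 2, against 1 in cells with no phase signal of either library. The median number of such UMIs was 8 and 17.5 in S and G2M cells against 1 and 1. At least 10 UMIs were held by 39.1% and 74.3% of S and G2M cells, by 17.5% and 28.0% of G2M cells, and by 0.406% and 0.488% of cells with no phase signal.

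The libraries differed in the level of many histone cluster genes, and not by a common factor. In S and G2M cells, 18 of 44 genes compared, each with at least 4 UMIs per library, were over 2-fold higher in replicate 2 and 10 over 4-fold. Among all 11020 features compared the shares were 4.42% and 0.808%. Hist1h2ab was 10.37-fold and Hist1h2ae 10.1-fold higher in replicate 2, Hist1h4d 5.75-fold and Hist1h2ap 5.32-fold. Hist1h1b and Hist1h1e were each only 1.17-fold higher and Hist1h1a 1.36-fold. Over all cell clusters, Hist1h1c stood at 0.56 and Hist1h2bc at 0.77 of their replicate 1 levels. Summed by type, H2A was 4.90-fold, H4 3.43-fold and H3 2.65-fold higher in replicate 2, H1 1.14-fold and H2B 1.101-fold. With 2 libraries of 1 group, a difference between animals, preparations or lots cannot be told apart, and none was tested.

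Some of these genes were higher in replicate 2 in each class and others were not. Hist1h2ae was 5.99-fold higher in cells with no phase signal, 14.5-fold in S cells and 8.97-fold in G2M cells, and Hist1h4d 2.82-fold, 3.33-fold and 4.46-fold. Hist1h4a, 4.88-fold higher in S and G2M cells, was at 0.99 of its replicate 1 level with no phase signal, and Hist1h2be, 2.38-fold higher in S and G2M cells, was at 0.41. The class of S and G2M cells drew on different cell clusters in the libraries. In replicate 1, 130 of its 255 cells were in cluster 6 (led by Mki67 and Birc5), 89 in cluster 7 (led by Hmmr and Cenpf) and 12 in cluster 4. In replicate 2, 42 of 232 were in cluster 6, 55 in cluster 7 and 111 in cluster 4. Within cluster 6, Hist1h2ae in these cells was 861 CPM in replicate 2 and 63.8 in replicate 1, and within cluster 7 it was 1002 and 89.3. Hist1h1b was 855 and 783 in cluster 6 and 975.3 and 736 in cluster 7. Without cluster 4 the ratio of Hist1h2ae in S and G2M cells was 11.8-fold and that of Hist1h1b 1.21-fold. The ratio of Hist1h1e was then 1.53-fold, of Hist1h1a 1.73-fold and of Hist1h1d 2.71-fold. Hist1h1c stood at 0.79 of its replicate 1 level. Hist1h2bc was 1.45-fold higher in replicate 2, the opposite direction to that over all cell clusters.

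Across the 12 cell clusters, the 65 genes were highest where most cells were above an S or G2M cut. This is a description, since the clusters share 2 libraries. In cluster 7, where 99.7% of cells of replicate 1 and 100% of replicate 2 were above a cut, they summed to 1209 and 2786 CPM, and in cluster 6 to 1289.7 and 2612. Clusters 4 and 9 lay between, at 737 and 1080.1 and at 833 and 1605.5. Cluster 8, led by Krt24, Calml3 and Aqp3, with 1.06% and 1.82% of cells above a cut, had 130 and 125. Cluster 10 had 83.0 and 56.4. Hist1h1c did not follow this order: it was highest in clusters 1 to 3 (369 to 408 CPM in replicate 1 and 190.1 to 197 in replicate 2) and lower both in cluster 7, at 160.1 and 108, and in cluster 8, at 128 and 31.6. Cluster 6, with 97.8% and 97.6% of cells above a cut, had 253 and 125, and cluster 5, with 0.913% and 2.70%, had 249 and 135.

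**Figure D4:**
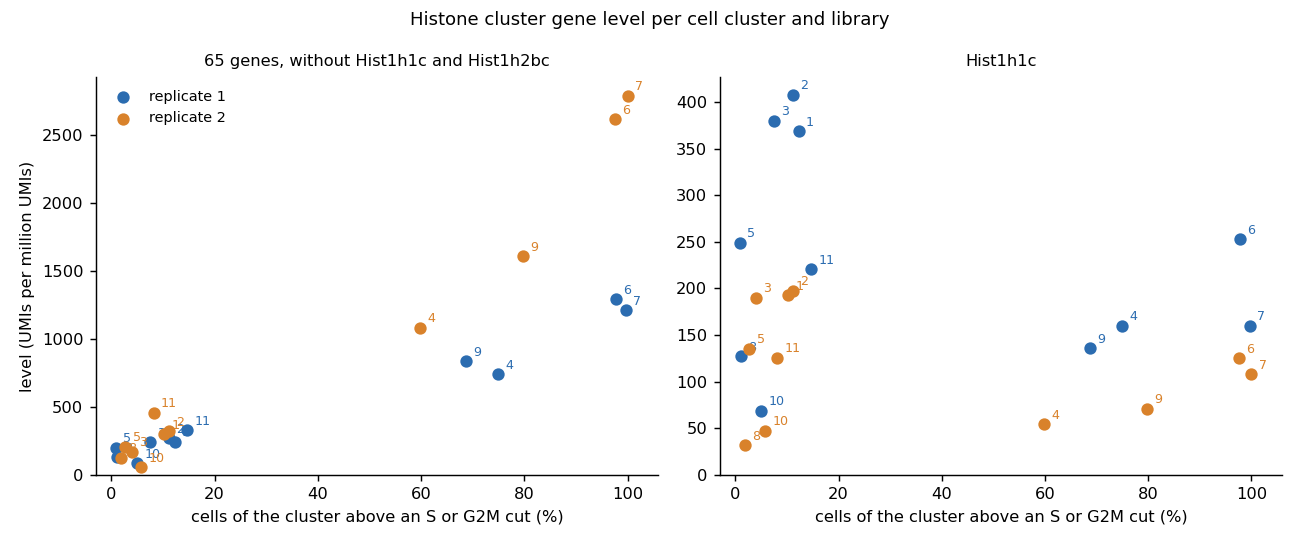
Level in CPM (vertical axes) of the 65 genes without Hist1h1c and Hist1h2bc (left) and of Hist1h1c (right) against the percentage of a cluster's cells above an S or G2M cut, for each numbered cell cluster with at least 20 cells in a library. The 65 genes are highest in clusters 6 and 7 (1289.7 and 1209 in replicate 1, 2612 and 2786 in replicate 2), and Hist1h1c is highest in clusters 1 to 3.

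The annotated 3′ ends differ among these genes. AATAAA, the poly(A) signal, searched on the sense strand in the last 50 bases of protein-coding transcripts, was found in 14 of the 67 genes (20.9%) and in 65.8% of the other protein-coding genes. Counting every annotated transcript it was found in 15, the count used below. As with the stem-loop, 13 of the 67 genes have a gene model with no 3′ UTR, so the search could not reach a signal there. Of the 37 genes higher in S and G2M cells, 4 had it and their median 3′ UTR was 89 bases. No 3′ UTR is annotated for 9 of these 37, against 0 of the 5 tested genes that were not called, so the 2 groups are not searched alike. Of the 5 tested genes that were not called, 4 had it (Hist3h2a, Hist2h2be, Hist1h2be and Hist2h4), with a median 3′ UTR of 1700 bases. Hist1h1c, with an 880-base 3′ UTR, has AATAAA as well as the stem-loop, and so has Hist1h2ae. Hist1h2bc, with 2 exons, has neither in its annotated form. The genes were grouped by their calls, so these counts are a description and were not tested.

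Sequence likeness limits which gene a read is assigned to. Of the 91-base windows in the last 400 bases, all were shared with another gene in 6 of the 67 genes, over 50% in 28, and none in 20. Hist1h2ap shares all of its windows, Hist1h2ab 66.1% and Hist1h2ae 36.8%, with other H2A genes among others, so their separate levels are uncertain. The same holds for Hist2h2bb (47.1% shared), Hist1h2bj (41.6%) and Hist1h3c (34.5%). Hist1h1b, Hist1h1a, Hist1h1c, Hist1h1d, Hist1h2bc and Hist1h4d share none.

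Promoter sequence is printed for 4 genes that show the main patterns: high in both libraries (Hist1h1b), high mainly in replicate 2 (Hist1h2ae and Hist1h4d), and highest without a phase signal (Hist1h1c). Each run is the 150 bases before the RefSeq start site in GRCm38.p6, on the strand of the gene. Capitals mark TATAAA on the sense strand, CCAAT on either strand (ATTGG on the other) and the octamer ATTTGCAT on either strand (ATGCAAAT on the other).
Hist1h1b, chr13:21780626-21780775, minus strand: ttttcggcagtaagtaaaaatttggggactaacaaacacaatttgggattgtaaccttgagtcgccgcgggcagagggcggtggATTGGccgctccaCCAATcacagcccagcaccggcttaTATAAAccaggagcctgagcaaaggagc
Hist1h2ae, chr13:23571221-23571370, minus strand: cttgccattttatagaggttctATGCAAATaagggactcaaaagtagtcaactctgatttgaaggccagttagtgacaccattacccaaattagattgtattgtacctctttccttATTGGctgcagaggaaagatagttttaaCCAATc
Hist1h4d, chr13:23581418-23581567, plus strand: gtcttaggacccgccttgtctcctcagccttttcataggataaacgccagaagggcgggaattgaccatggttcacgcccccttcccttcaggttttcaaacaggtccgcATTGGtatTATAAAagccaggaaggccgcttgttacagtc
Hist1h1c, chr13:23738657-23738806, plus strand: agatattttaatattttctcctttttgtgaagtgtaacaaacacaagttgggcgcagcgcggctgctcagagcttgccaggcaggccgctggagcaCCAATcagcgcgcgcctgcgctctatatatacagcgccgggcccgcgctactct
In the 250 bases before the start, matched for 61 of the 67 genes, CCAAT stood in 50 (82.0%), against 33.8% of all 32851 promoters. TATAAA stood in 23 (37.7%), against 7.59%. The octamer stood in 13 (21.3%), against 1.60%: in 7 of 18 H2A and 6 of 16 H2B genes, and in none of the matched H1, H3 and H4 genes. CCAAT stood in 18 of 18 H2A, 16 of 16 H2B, 5 of 5 H1 and 8 of 10 H3 genes but in 3 of 12 H4 genes. A match of letters does not show that a factor binds. Hist1h1b and Hist1h1c carry CCAAT alike and differ in the exact letters TATAAA. Variants of these letters were not searched, such as the run tatatata in the printed Hist1h1c sequence. The octamer is found in Hist3h2a as well as in Hist1h2ae.

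Genes that serve the histone genes were read from the same fit, with the share of all genes called as given above. Of 20 histone chaperones and assembly factors, 16 were higher and 1, the importin gene Ipo4, lower in S and G2M cells, and 15 were higher in S cells. Their median log2 fold change was 1.31 and 0.87. Chaf1a, of the chromatin assembly factor that loads new H3 and H4 at forks, averaged 45.4 ± 6.70 CPM in S and G2M cells and 48.96 ± 6.75 in S cells, against 6.78 ± 0.47 in cells with no phase signal (SD, n = 2 libraries, here and below). Asf1b, a chaperone of new H3 and H4, averaged 70.8 ± 1.82 and 27.2 ± 2.23 against 2.002 ± 0.32. Of 18 genes for histone mRNA synthesis and processing, 17 were tested and 7 were higher in S cells. Slbp averaged 171 ± 24.1 CPM in S cells, 234 ± 44.7 in S and G2M cells and 56.9 ± 10.41 in G2M cells, against 62.9 ± 8.43 with no phase signal. Its log2 fold change was 1.49 in S cells and -0.18 in G2M cells (edgeR adjusted p = 0.162 for G2M cells). Slbp and Chaf1a were thus higher in S than in G2M cells by 1.67 and 1.92 on the log2 scale (edgeR adjusted p = 2.06e-07 and 1.94e-06), the comparison in which 24 of 44 clustered histone genes were lower. Eri1, an exonuclease that trims the stem-loop end, averaged 57.4 ± 0.32 in S cells, 75.05 ± 9.01 in S and G2M cells and 37.0 ± 2.36 in G2M cells, against 28.0 ± 1.32.

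Histone genes outside the clusters, most of which make polyadenylated mRNAs, had a smaller median change. Of 11, 9 were higher in S and G2M cells, with a median log2 fold change of 1.17, against 3.44 for the 44 clustered genes; the difference was not tested. H2afz, for the variant H2A.Z, averaged 4040 ± 329 CPM in S and G2M cells and 3994 ± 112 in G2M cells, against 885 ± 45.8 with no phase signal. H2afx, for the damage-responsive H2A.X, is known to make both a stem-loop and a polyadenylated mRNA. It averaged 261 ± 28.7 and 258 ± 42.1 against 41.8 ± 6.21. H3f3b, an H3.3 gene used throughout the cycle, averaged 5901 ± 1021 and 6327 ± 1598 against 6370 ± 1696 (log2 -0.08 and -0.04, edgeR adjusted p = 0.492 and 0.779).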

How the data were processed

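Single cells of 2 libraries were counted by the 10x 3′ protocol. The authors deposited raw UMI counts per gene and barcode; the submitters' processing notes name Cell Ranger 3.1.0, Seurat 3.1 and mm10 without roles. The sources used here do not name the gene models. Coordinates, overlaps and 3′ ends are from GENCODE M21 and promoters from RefSeq, both GRCm38. How reads shared by near-identical genes were assigned is not stated, so such genes are reported as uncertain. Priming on poly(A) lowers the counts of mRNAs without it.

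From these counts, barcodes were kept when they held 1000 or more genes and no more than 10% of UMIs from mitochondrial genes, 3918 in replicate 1 and 3041 in replicate 2, with 43731597 and 34571424 UMIs. Doublets, called for 214 and 131 kept cells, were left in, and leaving them out is an alternative. The S and G2M lists are those of Seurat in mouse spelling without Slbp, Nasp, Casp8ap2, Chaf1b, Cenpa and Anp32e. Cells were clustered with the Leiden method (scanpy 1.11.5, leidenalg 0.10.2, Python 3.11.15) on 2000 variable genes, 30 components, 20 neighbours and resolution 0.5, with no histone cluster gene among them.

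UMIs were summed over cells per class and library into 8 sums and fitted with edgeR 4.0.16 in R 4.3.3 (filterByExpr, TMM scaling, quasi-likelihood test, two-sided, 5 coefficients, 3 residual degrees of freedom). A call is a Benjamini-Hochberg adjusted p below 0.05 over 11580 genes. The SE of an edgeR fold change was derived from its test, as the absolute log2 fold change over the square root of the F statistic. The library term pairs the classes, since the 4 classes of a number are cells of the same library. All 8 sums share 2 libraries, and the comparisons with no phase signal share those cells. Tested on simulated data for S and G2M against no phase signal over 11580 genes, the fit recovered 77.6% of changes of log2 size 1 and 98.0% of size 2. The simulated sums were independent, with a fixed spread and the same ratio of the libraries in every class. The ratio of several histone cluster genes varied by class, so these rates may not hold for them. Intervals are exact Poisson or Clopper-Pearson intervals at 95% and cover counting error only.

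Genes were named if among the 25 histone cluster genes with the highest mean level or called in any of 4 phase comparisons, and called genes of 3 other histone lists could be named. The members and lists were chosen with earlier results of these data known. Alternatives were DESeq2 1.42.0 (test or scaling), no filter on low counts, no library term, other phase cuts, scores and cell filters, leaving out cells, clusters or a library, and leaving out the most abundant genes.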

Additional observations from a re-analysis of the deposited data

How the results depend on the processing

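Of 2360 fold changes of single genes recomputed under the alternatives with both libraries, 2093 had the same direction and call, 177 lost a call, 40 gained one, 48 that were not called changed sign and 2 that were called changed sign. The replicate block is the library term. Without the replicate block, the numbers of histone cluster genes called were 1 of 17 for S, 23 of 39 for S and G2M, and 15 of 33 for G2M, each against no phase signal. They were 5 of 24 for S against G2M, 9 of 30 for S and G2M against S, and 3 of 24 for S and G2M against G2M. With Seurat-type scores they were 6 for S, 21 for G2M and 12 for S against G2M. For S against no phase signal they were also 11 with a cut at 2 deviations, 9 at 5% mitochondrial UMIs and 10 without cluster 4. With Seurat-type scores, Hist1h2bc in S and G2M cells turned to 0.069 (edgeR adjusted p = 0.638) and Hist1h2bb in G2M cells to -0.071 (edgeR adjusted p = 0.941). The share of all genes called is not given for these alternatives. The causes were not tested.

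The mean summed level in G2M cells (1515 CPM) was 1207 at 2 deviations, 1718 at 4, 829 with Seurat-type scores, 1685 with phases called on thinned cells, 1246 at 5% mitochondrial UMIs, 1721 without cluster 4, 1687 averaged over cells and 1118 without Hist1h1c and Hist1h2bc. In S cells (671) it was 594, 802 and 742 under 2 deviations, 4 deviations and thinned phases, 510.0 at 5% mitochondrial UMIs and 405 without the same genes, and with no phase signal it was 225 without them. With either library alone the sums were 2189.6 to 3697 for S and G2M cells, 1426 to 1604 for G2M, 628 to 713 for S and 527 to 894 with no phase signal.

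The mean share of thinned cells with a UMI of any of the 67 genes was 97.4% in S and G2M cells. It was 95.8% at 2 deviations, 98.9% at 4, 94.6% with Seurat-type scores, 96.6% with thinned phases and 99.6% unthinned. In G2M cells (90.5%) it was 89.1%, 92.0%, 87.2% and 91.4% under the same 4 phase rules, 89.7% without doublets, 90.8% at 500 genes and 20% mitochondrial UMIs, 86.9% at 5%, 90.3% without cluster 4, 90.8% without clusters 10 and 12 and 96.9% unthinned. In S cells (74.9%) it was 69.4% at 5% mitochondrial UMIs, 77.8% without cluster 4 and 90.1% unthinned, and with no phase signal (77.3%) it was 88.6% unthinned. By library the shares were 96.9 to 98.0%, 90.5% in each, 73.3 to 76.5% and 74.2 to 80.4% in the same class order. Unthinned, 65.4% and 76.9% of cells of the collagen-led cluster 10 and 77.8% and 73.3% of the immune-led cluster 12 held such a UMI. The mean unthinned shares in S cells (90.1%) and with no phase signal (88.6%) lay above these. The groups differ in depth, and cluster 12 has few cells. Whether the UMIs in clusters 10 and 12 are ambient RNA or made by those cells was not tested. The part of ambient RNA in the shares of the phase classes is therefore not known.

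The log2 ratio of replicate 2 over replicate 1 of the summed level was 0.76 in S and G2M cells. It was 0.67 at 2 deviations, 0.93 at 4, 0.44 with Seurat-type scores, 0.87 with thinned phases, 0.70 at 500 genes and 20% mitochondrial UMIs, 1.02 without cluster 4 and 0.84 without Hist1h1c. In G2M cells (0.17) it was -0.17, 0.36, -0.64 and 0.51 under the phase rules, 0.080 at 500 genes and 20%, 0.60 at 5%, 0.48 without cluster 4 and 0.33 without Hist1h1c. In S cells (-0.18) it was -0.56 at 2 deviations, 0.42 at 4, -0.82 with Seurat-type scores, 0.080 at 5% mitochondrial UMIs and 0.19 without Hist1h1c. With no phase signal (-0.76) it was -0.82, -0.71, -0.81 and -0.72 under the phase rules, -0.84 at 500 genes and 20%, -0.37 at 5%, -0.71 without cluster 4 and -0.46 without Hist1h1c. The sign in S and in G2M cells thus depended on the phase rule.

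With 1 library left no residual degree of freedom remains, so no count of calls could be made. DESeq2 gave 37, 30 and 15 calls for S and G2M, G2M and S, and with no filter on low counts 46, 39 and 19 genes were called. For these too, no share of all genes is given. Depth limits the 23 genes under the filter, which have at most 88 UMIs each and are not tested otherwise. The planned protein identity within a histone type was not run.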
